A study of Arabidopsis thaliana with 36 samples.

Results

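The genes described here encode a light signalling module of Arabidopsis thaliana. They are the ubiquitin ligase gene COP1 (AT2G32950), its partner genes SPA1 (AT2G46340), SPA2 (AT4G11110), SPA3 (AT3G15354) and SPA4 (AT1G53090), the repressor gene DET1 (AT4G10180), the transcription factor genes HY5 (AT5G11260) and HYH (AT3G17609), and the UV-B pathway genes RUP1 (AT5G52250) and RUP2 (AT5G23730). In RefSeq build TAIR10.1, COP1 spans chr2:13977881-13983609, SPA1 chr2:19022154-19027528, SPA2 chr4:6771605-6777225, SPA3 chr3:5169095-5173105, SPA4 chr1:19783185-19786902 and DET1 chr4:6346411-6349314. HY5 spans chr5:3593335-3595073, HYH chr3:6023844-6024710, RUP1 chr5:21216772-21218351 and RUP2 chr5:8005097-8006630. The 10 genes were taken by locus from the 33540 genes of each library, and all 10 passed the filter on low values in every fit. RNA was sequenced from whole seedlings of 3 genotypes in the Col-0 background, which were the wild type (WT), pif4-2, which affects PIF4, a transcription factor that promotes growth, and hda9-1, which affects HDA9, a histone deacetylase. Each genotype was grown at 22 or 27 °C and harvested at an age of 2 or 7 days, which gives 12 groups of 3 libraries. All groups shared short days of 8 h light and 16 h dark at about 100 µmol per square metre and second, and all were harvested at lights on, so each value describes 1 time of day. Each library pools RNA from 3 batches of seedlings, and each mutant is represented by 1 allele. The labels do not say that libraries of a group came from separate experiments, so p-values measure the spread between these pools.

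COP1 and the SPA proteins form an E3 ubiquitin ligase complex that marks light signalling factors such as HY5, HYH and HFR1 for degradation, most strongly in darkness. DET1 acts beside it with DDB1 and COP10 in a second complex of the same degradation system. HY5 and its close relative HYH are bZIP transcription factors that promote seedling development in light and pigment synthesis, and HY5 competes with PIF4 at shared targets. Under UV-B the photoreceptor UVR8 binds COP1, and RUP1 and RUP2 return UVR8 to its inactive form. Much of this control acts on protein stability and location, which RNA levels do not measure.

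The upstream sequences of HY5, HYH, RUP1 and RUP2 are shown because the members of each pair responded unequally to 27 °C in the results that follow. HY5-type bZIP factors bind sites built around an ACGT core, which is written in capitals. Each sequence holds the 250 bases before the annotated start, 5′ to 3′ on the strand of the gene, read from RefSeq build TAIR10.1 at chr5:3595074-3595323 on the minus strand for HY5, and on the plus strand at chr3:6023594-6023843 for HYH, chr5:21216522-21216771 for RUP1 and chr5:8004847-8005096 for RUP2.
HY5: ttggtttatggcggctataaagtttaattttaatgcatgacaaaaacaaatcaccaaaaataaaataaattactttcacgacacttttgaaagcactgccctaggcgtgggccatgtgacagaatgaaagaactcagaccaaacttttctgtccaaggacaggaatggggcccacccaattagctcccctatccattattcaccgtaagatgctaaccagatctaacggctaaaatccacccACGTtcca
HYH: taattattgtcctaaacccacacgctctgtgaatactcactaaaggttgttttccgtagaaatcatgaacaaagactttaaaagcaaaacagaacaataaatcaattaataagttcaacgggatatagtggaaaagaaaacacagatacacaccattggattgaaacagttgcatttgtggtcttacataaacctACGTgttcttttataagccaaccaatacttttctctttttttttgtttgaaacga
RUP1: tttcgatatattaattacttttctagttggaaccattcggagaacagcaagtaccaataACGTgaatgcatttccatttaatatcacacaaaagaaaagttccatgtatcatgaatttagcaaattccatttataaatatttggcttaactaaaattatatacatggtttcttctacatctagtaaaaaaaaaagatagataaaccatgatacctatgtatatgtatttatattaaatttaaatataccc
RUP2: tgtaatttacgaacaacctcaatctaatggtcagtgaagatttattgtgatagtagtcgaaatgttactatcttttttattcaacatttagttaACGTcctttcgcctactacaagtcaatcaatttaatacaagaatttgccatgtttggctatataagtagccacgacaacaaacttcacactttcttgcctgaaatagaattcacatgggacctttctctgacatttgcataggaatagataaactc
Each of the 4 windows holds 1 ACGT core, which ends 4 bases before the start in HY5, 51 bases in HYH, 187 bases in RUP1 and 152 bases in RUP2. An ACGT core is present in 44.1% of 27443 promoter windows of this length, so its presence is common. None of the 4 windows holds the G-box CACGTG, which 6.49% of windows hold. The letters CACATG, searched on both strands like the others, occur once in HY5, 132 bases before the start, and once in RUP2, 39 bases before it, against 11.1% of windows. The evening element AAATATCT was in none of the 10 members' windows and in 4.79% of all. A letter match is a description and shows no binding.

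The libraries held 21906850 to 67795235 reads in genes (median 44904956). Every value of the 10 genes rests on at least 133 reads. HDA9 was at 26.7 ± 0.831 normalised counts (SD, n = 3) in hda9 at 22 °C and 2 days and at most 73.4 ± 1.53 (SD, n = 3) in any hda9 group, against 407 ± 15.8 to 549 ± 37.9 (SD, n = 3) in WT groups. PIF4 was lower in pif4 than in WT at 7 days, with 2301 ± 391 against 3604 ± 80.3 (SD, n = 3) at 22 °C and 4797 ± 177 against 8096 ± 429.6 (SD, n = 3) at 27 °C. At 22 °C and 2 days it was higher in pif4, with 853 ± 170 against 470 ± 133 (SD, n = 3), and libraries did not overlap. At 27 °C and 2 days it was not lower, with 1802 ± 459.8 against 1871 ± 552 (SD, n = 3). PIF4 counts therefore do not check the pif4 labels at that age. In hda9 PIF4 was also below WT at 7 days, with 2152 ± 62.0 at 22 °C and 5666 ± 467.5 at 27 °C (SD, n = 3). A lower PIF4 count at 7 days is thus not particular to pif4. At 2 days PIF4 was above WT in hda9, with 1256 ± 189 at 22 °C and 3825 ± 557 at 27 °C (SD, n = 3).

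Some libraries stood apart. At 2 days the third replicates of WT and pif4 at both temperatures were shifted along the main component of variation, which held 68.4% of the variance. Libraries of hda9 were spread along it too. As in WT and pif4, replicate 3 scored highest in hda9, with 89.6 against 66.6 and 71.9 at 27 °C. At 22 °C it scored -15.8, against -43.4 for replicate 1 and -22.9 for replicate 2. The hda9 libraries were kept where the third replicates of WT and pif4 were left out. That fit is therefore unbalanced in every comparison and response difference of hda9 and WT at 2 days. At 7 days the third replicate of pif4 at 22 °C stood alone on the fourth component, which held 4.56% of the variance, with a score of 49.9 against -16.8 and -16.3 for the other replicates of its group. It was the highest library of its group for COP1, SPA2, SPA4, DET1, HY5 and HYH, and the lowest for SPA1, SPA3, RUP1 and RUP2. RNA levels of tissue and stage marker genes also moved with the groups. The summed level of 4 shoot marker genes, called leaf markers here, was taken in WT at 7 days. It lay within 1844330 to 1854800 normalised counts at 22 °C and within 1108340 to 1252010 at 27 °C, and 3 of the 4 genes were lower. The summed level of 5 root marker genes was 2201 to 2299.9 against 1826 to 1897 in the same groups, with 3 of 5 lower. The summed level of 3 marker genes of the seed reserve stage was 1268 to 3754 against 7255 to 12498, with 3 of 3 higher. In hda9 at 2 days leaf markers were at 842599 to 1031320 at 22 °C against 715091 to 822819 in WT, with 2 of 4 higher. No marker was at 0 in all libraries of a group. In whole seedlings, fewer cells of a type and less RNA per cell cannot be told apart, and the part of tissue makeup in the results on the 10 genes was not tested.

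The levels of the 10 genes differed in order and in range. Per kilobase of exon, HYH was highest in WT at 22 °C and 2 days with 1202 ± 121 normalised counts per kilobase (SD, n = 3), followed by DET1 with 817 ± 18.7 (SD, n = 3). COP1, SPA3, SPA1 and SPA2 lay between 402 and 469.9 per kilobase in that group, and SPA4 was lowest with 111 ± 11 (SD, n = 3). In WT at 27 °C and 7 days HYH was at 894 ± 172 per kilobase (SD, n = 3), DET1 at 695 ± 95.4 and RUP2 lowest at 128 ± 19.1 (SD, n = 3). The mean normalised counts of the highest and the lowest of the 12 groups differed 11.9-fold for HYH, 3.41-fold to 4.02-fold for SPA1, SPA3, SPA4, HY5, RUP1 and RUP2, 1.75-fold for COP1, 1.33-fold for SPA2 and 1.24-fold for DET1. HYH is thus the member with the widest range and DET1 the one with the narrowest.

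**Figure D1:**
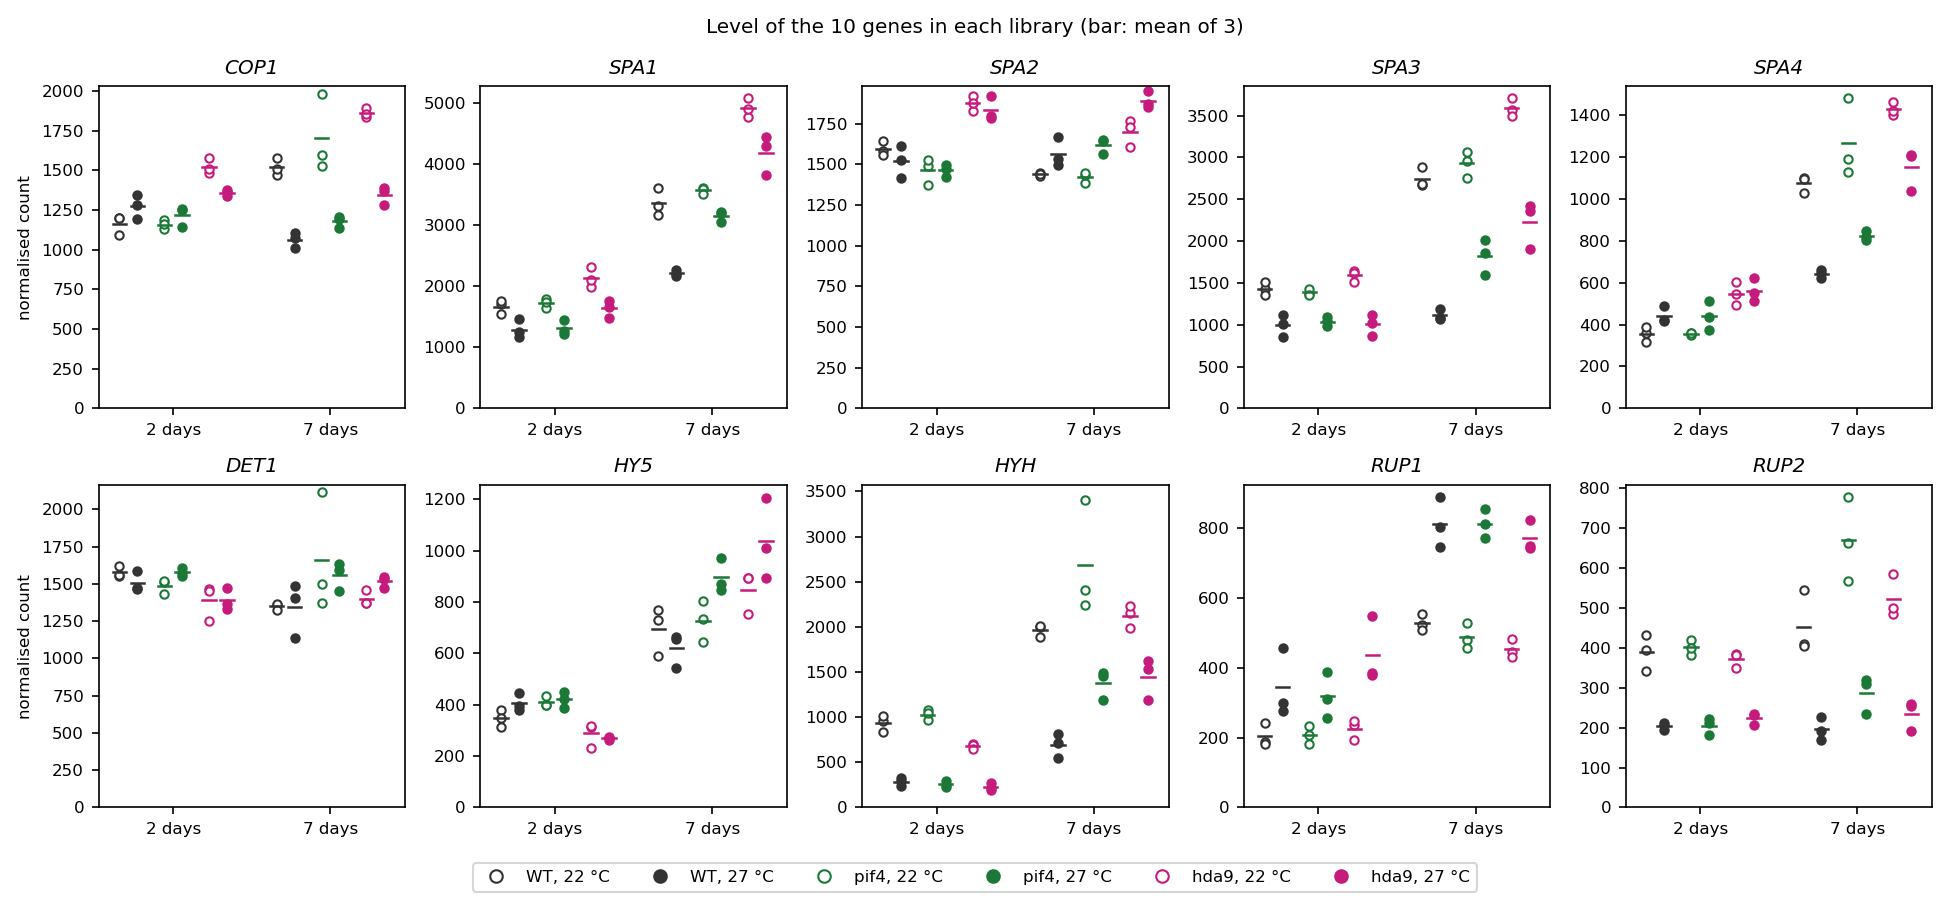
Normalised counts of the 10 genes in each of the 36 libraries, by age (horizontal axis), genotype (colour) and temperature (open 22 °C, filled 27 °C), with a bar at the mean of 3 libraries. HYH and RUP2 points at 27 °C lie below those at 22 °C in every genotype and age, and RUP1 points lie above.

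RUP1 and RUP2, whose proteins share the role of inactivating UVR8, moved in opposite directions in the warmth. In WT at 2 days RUP1 was at 188, 183 and 242 normalised counts at 22 °C and at 298, 277 and 456 at 27 °C. RUP2 was at 432, 394 and 341 at 22 °C and at 193, 207 and 210.5 at 27 °C in the same libraries. All 27 °C libraries lay above the 22 °C libraries for RUP1 and below them for RUP2. At this age RUP1 rose 1.65-fold in WT (log2 change 0.72, SE 0.20, adjusted p = 0.00384, limma) and RUP2 fell 1.9-fold (log2 change -0.93, SE 0.09, adjusted p = 2.96e-07).

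At 7 days RUP1 in WT was at 555, 521 and 509 at 22 °C and at 802, 888 and 745 at 27 °C. RUP2 was at 411, 404 and 544 at 22 °C and at 228, 170.1 and 191 at 27 °C. Again no library of one temperature reached the range of the other. RUP1 rose by 0.62 on the log2 scale (SE 0.08, adjusted p = 2.79e-06) and RUP2 changed by -1.20 (SE 0.16, adjusted p = 4.67e-06). In pif4 and hda9 both changes passed the test at both ages too, with RUP1 between 0.60 and 0.94 and RUP2 between -1.22 and -0.73. The RUP1 rise in pif4 at 2 days did not pass when replicate 2 of pif4 at 22 °C (adjusted p = 0.057) or replicate 3 of pif4 at 27 °C (adjusted p = 0.077) was left out.

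The order of the groups differed between the pair. For RUP1 the 3 groups at 27 °C and 7 days stood highest, with means of 771 to 813, and their libraries did not overlap those of the next group, WT at 22 °C and 7 days with 528 ± 24.2 (SD, n = 3). The 3 groups at 22 °C and 2 days stood lowest with means of 204 to 225, and neighbours among them overlapped. For RUP2 all 6 groups at 22 °C stood above all 6 at 27 °C, from 372 ± 19.8 (SD, n = 3) in hda9 at 22 °C and 2 days down to 288 ± 46.4 (SD, n = 3) in pif4 at 27 °C and 7 days at that boundary, where libraries did not overlap. Within each temperature, neighbouring groups of RUP2 overlapped throughout. Temperature thus separated the groups for RUP2 across both ages, and for RUP1 within each age.

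HYH fell at 27 °C in all 6 comparisons of temperature, while HY5 was called in 1 of 6. In WT at 2 days HYH was at 952, 829.8 and 1014 normalised counts at 22 °C and at 331, 236 and 289 at 27 °C. HY5 was at 379, 314 and 349.9 at 22 °C and at 393, 446 and 379 at 27 °C. The temperatures were far apart for HYH and adjacent for HY5. HYH fell 3.28-fold (log2 change -1.71, SE 0.13, adjusted p = 1.44e-08), while HY5 had a log2 change of 0.22 (SE 0.11, adjusted p = 0.0742). In pif4 and hda9 at 2 days HYH changed by -1.99 and -1.59 on the log2 scale (SE 0.13 for both), and HY5 had values of 0.03 and -0.08 (adjusted p = 0.826 and 0.522).

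At 7 days HYH in WT was at 1883, 1998 and 2008 at 22 °C and at 816, 552 and 710.4 at 27 °C, a fall of 2.87-fold (log2 change -1.52, SE 0.15, adjusted p = 1.65e-07). In pif4 it was at 2409.7, 2243 and 3409.8 at 22 °C and at 1454, 1186 and 1493 at 27 °C, and in hda9 at 2154, 1989 and 2225 at 22 °C and at 1529, 1193 and 1624 at 27 °C. In no genotype did the temperatures overlap, but the 27 °C libraries of both mutants lay above all WT libraries at 27 °C. The fall was 1.93-fold in pif4 (adjusted p = 3.87e-05) and 1.48-fold in hda9 (adjusted p = 0.00431). Without the third replicate of pif4 at 22 °C the change in pif4 was -0.76 against -0.95 with it, and it still passed.

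HY5 at 7 days had a log2 change of -0.16 in WT (SE 0.12, adjusted p = 0.282), 0.30 in pif4 (SE 0.12, adjusted p = 0.0405) and 0.28 in hda9 (SE 0.12, adjusted p = 0.0562). The rise in pif4 did not pass without a filter on low values (adjusted p = 0.0525) or without replicate 1 or 2 at 22 °C (adjusted p = 0.065 and 0.167) or replicate 1 or 3 at 27 °C (adjusted p = 0.141 and 0.062). The value in hda9 passed with edgeR (adjusted p = 0.038) and DESeq2 (adjusted p = 0.023).

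Ratios taken within a library do not depend on its scaling, and they separated the temperatures for both pairs. RUP1 to RUP2 was 0.437 to 0.712 in the 9 libraries at 22 °C and 2 days and 1.34 to 2.37 at 27 °C. At 7 days it was 0.618 to 1.35 at 22 °C and 2.41 to 5.2 at 27 °C. RUP2 was therefore the higher of the pair in all 22 °C libraries at 2 days, and RUP1 in all 27 °C libraries at both ages. The mean log2 ratio rose by 1.63 at 2 days and 1.90 at 7 days (exact permutation within genotypes, two-sided, p = 0.00025, the smallest that 8000 arrangements can give, adjusted p = 0.000286 over 8 tests).

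HY5 to HYH was 0.346 to 0.461 at 22 °C and 1.01 to 1.97 at 27 °C at 2 days, and 0.236 to 0.416 and 0.584 to 0.986 at 7 days. HYH thus had more counts than HY5 in all libraries at 22 °C and in those at 27 °C and 7 days, and fewer in those at 27 °C and 2 days. The mean log2 ratio rose by 1.82 at 2 days and 1.15 at 7 days (exact permutation, p = 0.00025, adjusted p = 0.000286 for each). Within genotypes the rise at 7 days was 1.36 in WT, 1.25 in pif4 and 0.85 in hda9, where an exact permutation of 3 against 3 libraries cannot give a p below 0.1. RUP1 and RUP2 are close to each other in exon length, with 1580 and 1534 bases, while HY5 has 1256 bases and HYH 775. Per kilobase of exon, mean HYH was thus not below HY5 in WT and hda9 at 27 °C and 2 days. HYH was at 368 per kilobase and HY5 at 323 in WT there, and at 292 and 215 in hda9. In pif4 the means were 333 for HYH and 335 for HY5.

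**Figure D2:**
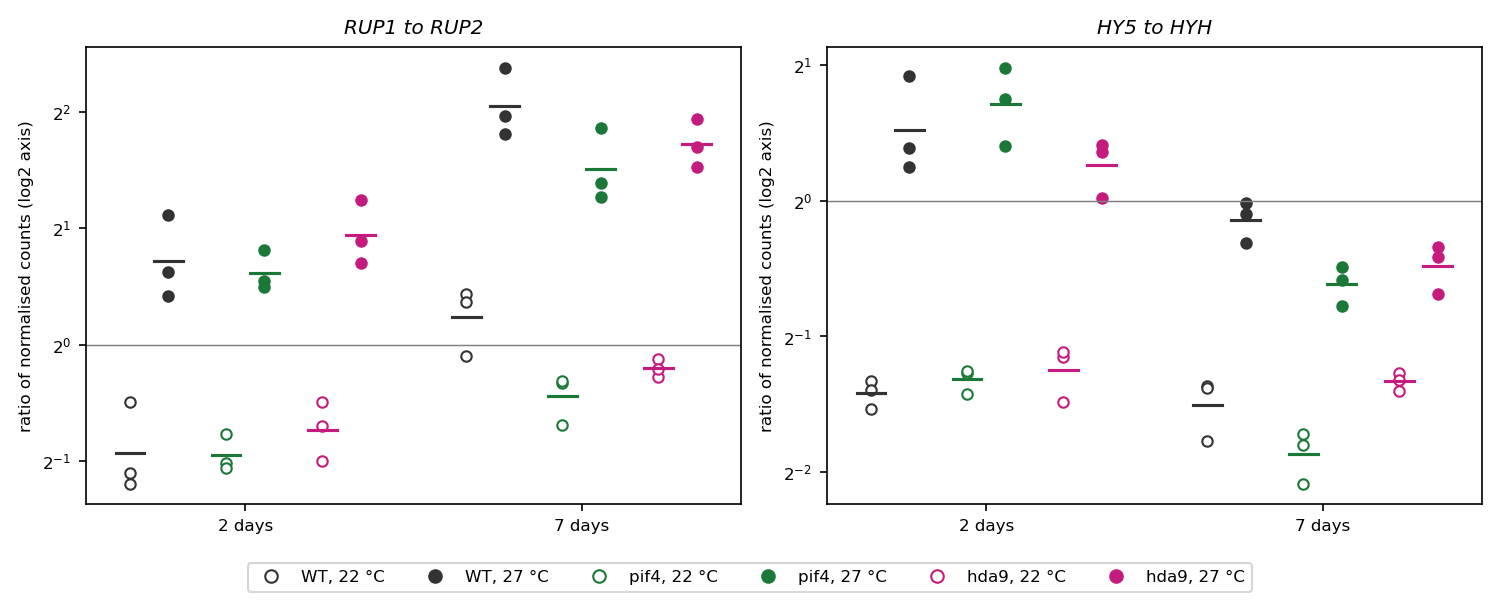
Ratio of normalised counts within each library for RUP1 to RUP2 (left) and HY5 to HYH (right) on a log2 axis, by age, genotype (colour) and temperature (open 22 °C, filled 27 °C), with a bar at the geometric mean of 3 libraries. At each age the 9 filled points of a panel lie above the 9 open points.

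COP1 and the SPA genes did not respond as a block. SPA1 and SPA3 fell at 27 °C in all 6 comparisons of temperature, SPA4 rose at 2 days in WT and pif4 and fell at 7 days in each genotype, COP1 fell at 7 days in each genotype and at 2 days in hda9, and SPA2 stayed within 0.19 of no change on the log2 scale. SPA1 is known to act in seedlings in darkness and light, SPA2 in dark-grown seedlings, and SPA3 and SPA4 mainly in older plants. SPA3 in WT was at 1425, 1359.9 and 1510.0 normalised counts at 22 °C and at 851, 1010.5 and 1119 at 27 °C at 2 days. At 7 days it was at 2671, 2678 and 2880.3 at 22 °C and at 1064, 1080.1 and 1191 at 27 °C. The temperatures did not overlap at either age. SPA3 fell 1.45-fold at 2 days (log2 change -0.53, SE 0.09, adjusted p = 8.67e-05) and 2.47-fold at 7 days (log2 change -1.30, SE 0.09, adjusted p = 1.62e-09). Across the mutants its change was -0.42 to -0.67 at 2 days and -0.69 and -0.70 at 7 days. The annotation places AT3G15350 across 135 bases of SPA3 on the other strand, with values up to 875, and the strand setting of the counting is not given in the sources used here, so SPA3 reads in that stretch cannot be told from those of its neighbour. SPA4 and AT1G53100 share 3 bases.

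SPA1 in WT was at 1538, 1701 and 1757 at 22 °C and 1252, 1165 and 1456 at 27 °C at 2 days. At 7 days its WT libraries stood at 3169, 3610.4 and 3309.9 at 22 °C and at 2271, 2171 and 2206 at 27 °C. The libraries at 27 °C were the lower ones at both ages. The fall was 1.29-fold (adjusted p = 0.00166) and 1.52-fold (adjusted p = 1.49e-07). In the mutants at 7 days it was smaller, at -0.18 in pif4 (SE 0.06, adjusted p = 0.0153) and -0.24 in hda9 (SE 0.06, adjusted p = 0.00264). The pif4 value did not pass without replicate 2 of pif4 at 27 °C (adjusted p = 0.064).

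SPA4, the SPA gene with the fewest counts at 2 days, was at 359, 318 and 388 in WT at 22 °C and at 423, 418 and 487 at 27 °C at that age. At 7 days it was at 1027, 1099 and 1093 at 22 °C and at 621, 644 and 660.2 at 27 °C. The warm libraries were higher at the first age and lower at the second. The log2 change was 0.32 at 2 days (SE 0.11, adjusted p = 0.0177) and -0.74 at 7 days (SE 0.08, adjusted p = 6.5e-07). The rise at 2 days did not pass without replicate 2 of WT at 22 °C (adjusted p = 0.091) or replicate 3 of WT at 27 °C (adjusted p = 0.084). In pif4 at 2 days the rise of 0.30 passed (adjusted p = 0.0272) but not without any 1 of 5 of its 6 libraries, nor without the third replicates of WT and pif4 (0.18, adjusted p = 0.175). In hda9 at 2 days the value was 0.04 (adjusted p = 0.764).

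COP1 in WT at 7 days was at 1473, 1509 and 1579 normalised counts at 22 °C and at 1077, 1008 and 1104 at 27 °C. The fall was 1.43-fold (log2 change -0.52, SE 0.08, adjusted p = 1.59e-05), and pif4 and hda9 had values of -0.52 and -0.47. At 2 days the WT libraries were at 1197, 1096 and 1200.3 at 22 °C and at 1344, 1195 and 1282 at 27 °C, and overlapped. The difference of 0.13 (SE 0.06, adjusted p = 0.0467) was called by limma, but not with edgeR (adjusted p = 0.0818), DESeq2 (adjusted p = 0.0604), TMM factors (adjusted p = 0.0804), no filter (adjusted p = 0.0528), the 2 compared groups alone (adjusted p = 0.134), without the third replicates of WT and pif4 (adjusted p = 0.0896), or without replicate 2 of WT at 22 °C or replicates 1 or 3 of WT at 27 °C (adjusted p = 0.212, 0.191 and 0.0969). In hda9 at 2 days COP1 fell by 0.16 (SE 0.06, adjusted p = 0.0153), which did not pass without replicate 3 of hda9 at 22 °C (adjusted p = 0.0609).

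SPA2 in WT was at 1559 to 1641 normalised counts at 22 °C and 1416 to 1614 at 27 °C at 2 days, and at 1426 to 1446 and 1497 to 1669.7 at 7 days. Its changes at 2 days were -0.07 in WT, 0.00 in pif4 and -0.03 in hda9 (adjusted p = 0.252 or above). At 7 days it rose by 0.19 in pif4 (adjusted p = 0.00582) and 0.15 in hda9 (adjusted p = 0.0213), and the value of 0.12 in WT (adjusted p = 0.0638) passed with edgeR (adjusted p = 0.029) and DESeq2 (adjusted p = 0.0223). The rise in hda9 did not pass without replicate 1 of hda9 at 22 °C (adjusted p = 0.118) or at 27 °C (adjusted p = 0.085). The ratio of SPA1 to SPA2 fell by 0.35 on the log2 scale at 2 days and by 0.49 at 7 days, and that of SPA3 to SPA4 by 0.76 and 0.34 (exact permutation, p = 0.00025 for each except p = 0.00325 for SPA3 to SPA4 at 7 days). The SPA genes therefore did not keep a fixed proportion between the temperatures. The fall of SPA3 to SPA4 at 7 days was -0.075 within pif4 and -0.56 within WT.

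DET1 was the member that differed least. Its WT libraries held 1556 to 1619.7 normalised counts at 22 °C and 1463 to 1586 at 27 °C at 2 days, and 1327 to 1365 and 1135 to 1486 at 7 days. The ranges overlapped at both ages. None of its 6 changes between temperatures passed the limma test, the edgeR test or DESeq2, and their values ran from -0.07 to 0.12. The 12 group means formed an order in which every group overlapped the next.

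Counts over the 10 genes are set against the share of all genes that passed the same test. In WT at 2 days 3 members were higher and 4 lower at 27 °C, where 72% of 21164 genes tested were called, 36.5% higher and 35.5% lower. In pif4 at 2 days 2 members were higher and 4 lower, with 70.2% of genes called, 35.8% higher and 34.4% lower. In hda9 it was 1 higher and 5 lower, with 66.8% of genes called, 31.8% higher and 35% lower. At 7 days 1 member was higher and 6 were lower in WT, with 57.4% of 21320 genes called, 26.3% higher and 31.1% lower. In pif4 3 were higher and 6 lower, with 60.1% of genes called, 28.5% higher and 31.6% lower. In hda9 2 were higher and 6 lower, with 57.9% of genes called, 27.5% higher and 30.4% lower. Called members were 6 or 7 of 10 at 2 days, a share near that of all genes. The median log2 change over the 10 genes in WT was -0.07 at 2 days and -0.56 at 7 days, beside 0.01 and -0.03 over all genes tested. Without the third replicates of WT and pif4 at 2 days the WT changes at that age were -1.67 for HYH, 0.63 for RUP1, -1.04 for RUP2, -0.42 for SPA1, -0.59 for SPA3 and 0.31 for SPA4, and all 6 passed. Every sign of a called member was the same across genotypes within an age except that of COP1 at 2 days.

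**Figure D3:**
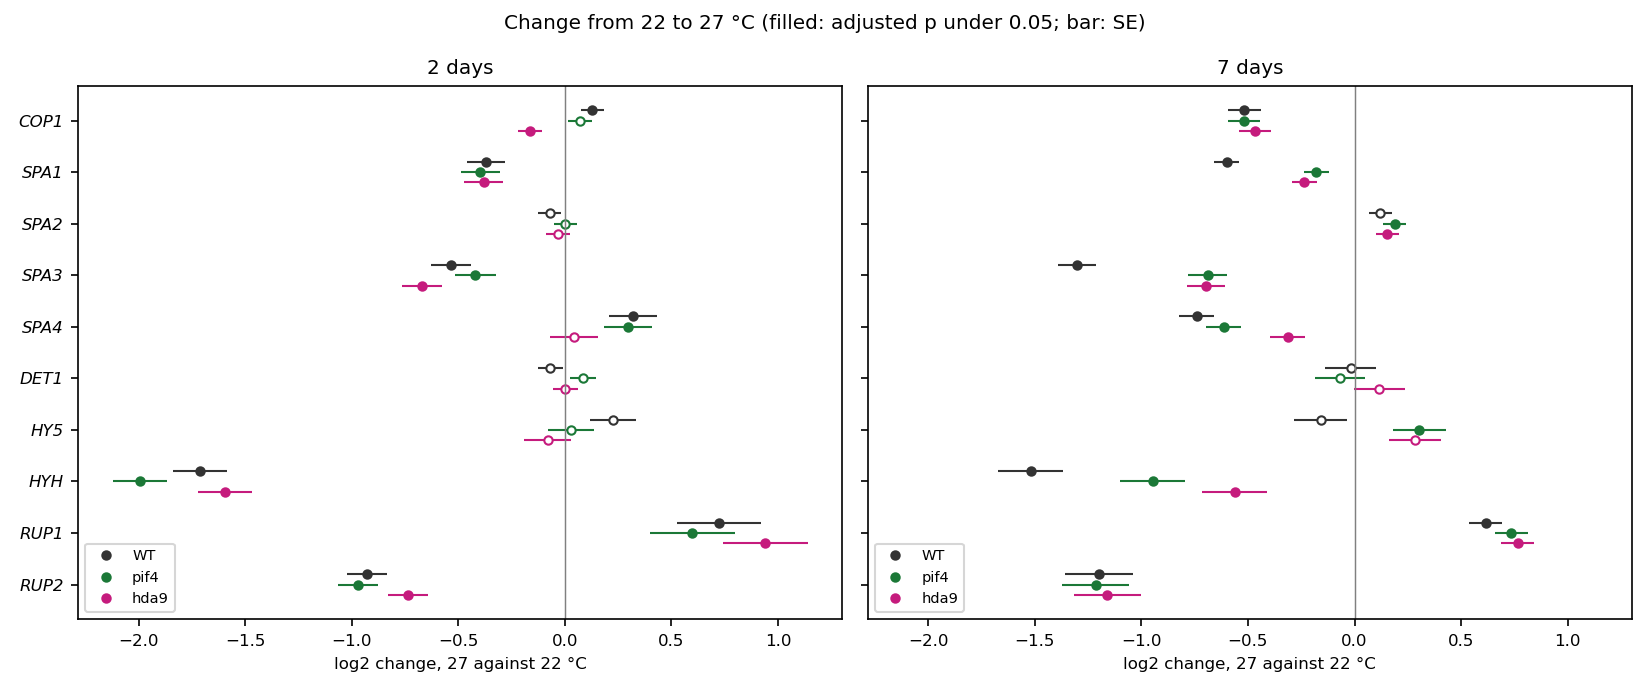
Log2 change of each gene from 22 to 27 °C (horizontal axis) in WT, pif4 and hda9 at 2 days (left) and 7 days (right), with bars of 1 SE and filled points where the adjusted p was under 0.05. HYH and RUP2 lie left of 0 and RUP1 right of it in all 6 comparisons, while DET1 has open points throughout.

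The pif4 mutant differed from WT in these genes at 7 days and mainly at 27 °C. At 2 days no member was called at either temperature by limma, edgeR or DESeq2, and 2 members at 22 °C and 0 at 27 °C had an unadjusted p under 0.05. Of all genes, 0.184% were called at each temperature, with 0.0945% higher and 0.0898% lower at 22 °C and 0.104% higher and 0.0803% lower at 27 °C, and PIF4 itself was not lower there. At 22 °C and 7 days RUP2 was higher in pif4, with 778, 663 and 566 normalised counts against 411, 404 and 544 in WT. These libraries did not overlap, and the difference was 0.56 on the log2 scale (SE 0.16, adjusted p = 0.0209, with 17.7% of genes called, 7.95% higher and 9.7% lower). It did not pass without replicate 1 or 2 of WT (adjusted p = 0.077 and 0.093) or replicate 1 of pif4 (adjusted p = 0.073), or with only the compared groups in the fit (adjusted p = 0.0805). HYH at 22 °C had a difference of 0.43 (adjusted p = 0.0604) that passed with edgeR (adjusted p = 0.0436) and DESeq2 (adjusted p = 0.0208), and of 0.24 (adjusted p = 0.246) without the third replicate of pif4.

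At 27 °C and 7 days 6 members were higher in pif4 and none lower, where 24.8% of genes were called, 13.1% higher and 11.7% lower. HYH was 2-fold higher (log2 difference 1.00, SE 0.15, adjusted p = 9.21e-05). SPA3 stood at 2017, 1589 and 1859 in pif4 against 1064, 1080.1 and 1191 in WT (0.71, SE 0.09, adjusted p = 1.48e-05), and SPA1 at 3197, 3049 and 3216 against 2271, 2171 and 2206 (0.51, SE 0.06, adjusted p = 5.88e-06). In both genes every pif4 library was above every WT library. HY5 was at 969.8, 847 and 871 in pif4 against 658, 544 and 662 in WT (0.53, SE 0.12, adjusted p = 0.00374). SPA4 differed by 0.35 and RUP2 by 0.55 (adjusted p = 0.00409 and 0.0168). The RUP2 difference did not pass without replicate 2 of WT or replicate 1 or 3 of pif4 at 27 °C (adjusted p = 0.084, 0.081 and 0.067). COP1, SPA2, DET1 and RUP1 had values of 0.15, 0.05, 0.22 and 0.00 (adjusted p = 0.164 to 0.974). In these groups the summed leaf markers were at 1438210 to 1534080 in pif4 against 1108340 to 1252010 in WT, with 2 of 4 higher, and 2 of 5 root markers were lower. Their part in these differences was not tested.

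Loss of HDA9 was accompanied by higher SPA1, SPA2 and SPA4 in all 4 comparisons with WT. SPA1 at 27 °C and 7 days was at 4291, 3821 and 4442 in hda9 against 2271, 2171 and 2206 in WT. Its log2 difference was 0.36 and 0.34 at 2 days (22 and 27 °C), and 0.55 and 0.91 at 7 days (SE 0.09 at 2 days and 0.06 at 7 days). SPA2, the member with the flattest temperature response beside DET1, was at 1830.3 to 1919 in hda9 against 1559 to 1641 in WT at 22 °C and 2 days. Its 4 differences were close to each other, at 0.23, 0.27, 0.24 and 0.27 (adjusted p = 0.00292, 0.00194, 0.00448 and 0.000776). No library of hda9 overlapped WT for SPA1 or SPA2 in any of the 4 comparisons. SPA4 differed by 0.62, 0.34, 0.41 and 0.84, and COP1 by 0.39, 0.10, 0.29 and 0.34, of which the value at 27 °C and 2 days did not pass (adjusted p = 0.205).

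At 27 °C and 2 days both the SPA4 and the SPA1 call rested on single libraries. SPA4 did not pass there without replicate 1 or 2 of WT or replicate 2 or 3 of hda9 (adjusted p = 0.101, 0.11, 0.062 and 0.145). SPA1 did not pass without replicate 2 of WT or replicate 3 of hda9 (adjusted p = 0.061 and 0.058). SPA3 was higher at 7 days, by 0.39 at 22 °C and 1.00 at 27 °C (adjusted p = 0.0055 and 3.31e-07), and had values of 0.15 and 0.02 at 2 days (adjusted p = 0.198 and 0.919).

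In hda9 HY5 was lower than in WT at 2 days at both temperatures and HYH at 22 °C, and both were higher at 27 °C and 7 days. The change of these genotype differences with age was not tested. HY5 at 27 °C was at 264, 276 and 269 in hda9 against 393, 446 and 379 in WT at 2 days, and at 1207, 893 and 1009 against 658, 544 and 662 at 7 days. The genotypes did not overlap at either age, on opposite sides. The differences were -0.59 (SE 0.11, adjusted p = 0.00114) and 0.73 (SE 0.12, adjusted p = 0.000181). At 22 °C they were -0.28 at 2 days (adjusted p = 0.046) and 0.29 at 7 days (adjusted p = 0.111, and 0.0379 with only the compared groups, libraries overlapping). The former overlapped with WT and did not pass with only the compared groups (adjusted p = 0.124), without a filter (adjusted p = 0.058), without the third replicates of WT and pif4 (adjusted p = 0.0833), or without replicate 1 or 3 of WT or replicate 3 of hda9 (adjusted p = 0.177, 0.083 and 0.282).

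HYH was at 698, 692 and 651 in hda9 against 952, 829.8 and 1014 in WT at 22 °C and 2 days (-0.45, SE 0.13, adjusted p = 0.00942). At 27 °C and 7 days it was 2.1-fold higher (1.07, SE 0.15, adjusted p = 3.75e-05). At 27 °C and 2 days its value was -0.33 (adjusted p = 0.0616), and the libraries of hda9 and WT with the same number deviated together there, with correlations of 0.181 to 0.388. When that number was fitted as a block, HYH passed (adjusted p = 0.0232), as did RUP1 with 0.36 (adjusted p = 0.0109, against 0.186 without the block). RUP1 also passed there without the third replicates of WT and pif4 (0.58, adjusted p = 0.00957), but that fit was unbalanced. It left out the highest WT library (456, beside 298 and 277) and kept the highest hda9 library (548, beside 379 and 384). DET1 was lower by 0.18 at 22 °C and 2 days (adjusted p = 0.0204), but not without replicate 2 of WT (adjusted p = 0.077) or replicate 3 of hda9 (adjusted p = 0.128), or with only the compared groups (adjusted p = 0.063). RUP2 was called in none of the 4 comparisons, with values from -0.06 to 0.26, and neither was RUP1. At 22 °C and 7 days RUP1 had a value of -0.22 (adjusted p = 0.0549). It passed with the block (adjusted p = 0.0337) and with only the compared groups (adjusted p = 0.0308).

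Over the 10 genes, hda9 had 4 higher and 3 lower than WT at 22 °C and 2 days (45.7% of all genes called, 24.8% higher and 20.9% lower), and 3 higher and 1 lower at 27 °C and 2 days (29.4% called, 14.4% higher and 15% lower). At 7 days it had 5 higher and 0 lower at 22 °C (20% of genes called, 9.84% higher and 10.2% lower), and 7 higher and 0 lower at 27 °C (34.3% called, 18.4% higher and 15.9% lower). The pif4 and hda9 comparisons share their WT libraries. Leaf markers in hda9 at 27 °C were at 1137370 to 1344620 against 716932 to 1064520 in WT at 2 days, and at 988555 to 1049980 against 1108340 to 1252010 at 7 days. In hda9 0 of 4 leaf markers were called at 27 °C and 7 days, 2 of 5 root markers were lower, with a sum of 1477 to 1666 against 1826 to 1897, and 1 of 3 seed reserve markers was lower. Their part in these differences was not tested.

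**Figure D4:**
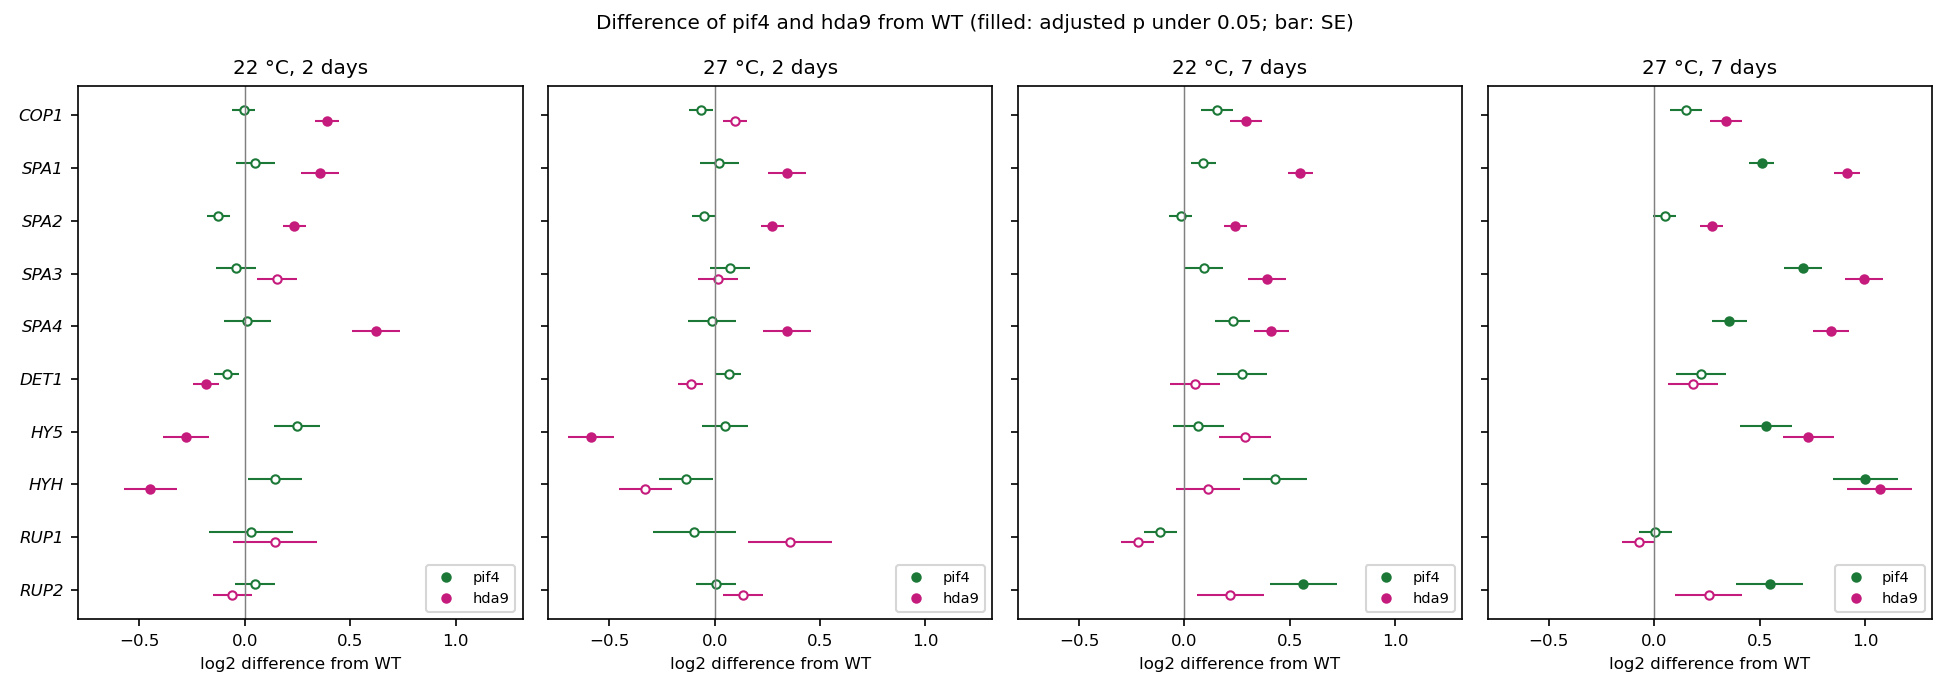
Log2 difference of pif4 and hda9 from WT for each gene (horizontal axis) in the 4 combinations of temperature and age, with bars of 1 SE and filled points where the adjusted p was under 0.05. HY5 of hda9 lies left of 0 at 2 days and right of 0 at 7 days, and at 27 °C and 7 days 6 points of pif4 and 7 of hda9 are filled, all right of 0.

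The responses to temperature were also compared between genotypes as a difference of differences. At 7 days the fall of SPA1 and SPA3 was smaller in both mutants than in WT. The log2 response of SPA3 was -1.30 in WT and -0.69 in pif4, a difference of 0.61 (SE 0.13, adjusted p = 0.0172), and -0.70 in hda9, a difference of 0.61 (SE 0.13, adjusted p = 0.0131). For SPA1 the differences were 0.42 (SE 0.08, adjusted p = 0.0136) in pif4 and 0.36 (SE 0.08, adjusted p = 0.0228) in hda9. Both mutants are set against the same WT responses.

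HYH in hda9 at 7 days differed by 0.96 (SE 0.22, adjusted p = 0.0193). SPA4 in hda9 differed by 0.43 (adjusted p = 0.0534), which passed with DESeq2 (adjusted p = 0.0223) and with only the compared groups (adjusted p = 0.00878). The HYH difference in pif4 was 0.57 (SE 0.22, adjusted p = 0.19), and 0.76 (adjusted p = 0.0291) without the third replicate of pif4 at 22 °C. Called members were 2 of 10 in pif4, both higher (2.1% of all genes called, 1.63% higher and 0.464% lower), and 3 of 10 in hda9, all higher (3.53% called, 2.81% higher and 0.713% lower). Of these calls, SPA1 in pif4 and SPA3 in hda9 passed under every alternative (highest adjusted p = 0.0474 and 0.0486). The others were sensitive to single libraries. SPA3 in pif4 did not pass without replicate 3 of WT at 22 °C, replicate 2 of WT at 27 °C or replicate 1 of pif4 at 27 °C (adjusted p = 0.054, 0.051 and 0.055). SPA1 in hda9 did not pass without any 1 of 6 libraries (adjusted p = 0.053 to 0.08), and HYH in hda9 without any 1 of 5 (adjusted p = 0.052 to 0.068), among them replicate 2 of WT at 22 °C, replicate 2 of WT at 27 °C and replicates 1 and 3 of hda9 at 27 °C for both genes.

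At 2 days no member's response difference between a mutant and WT passed the test. In pif4 limma called 0% of all genes and no member had an unadjusted p under 0.05. In hda9, where 2.71% of genes were called (0.567% higher and 2.15% lower), 1 member had an unadjusted p under 0.05. It was COP1, with a difference of -0.29 (SE 0.08, adjusted p = 0.0551), which passed without replicate 3 of WT (adjusted p = 0.0313) or replicate 1 of hda9 (adjusted p = 0.0473), both at 22 °C. No member was called by edgeR or DESeq2 in either of these comparisons.

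The WT response itself differed between the ages. The COP1 response was lower at 7 days than at 2 days by 0.65 (SE 0.09, adjusted p = 2.7e-06), that of SPA3 by 0.77 (SE 0.13, adjusted p = 3.06e-05) and that of SPA4 by 1.06 (SE 0.14, adjusted p = 7.01e-07). The differences are -0.65, -0.77 and -1.06 on the log2 scale. That of SPA2 was higher by 0.19 (SE 0.07, adjusted p = 0.0338), which did not pass with only the compared groups (adjusted p = 0.08), without the third replicates of WT and pif4 at 2 days (adjusted p = 0.0868) or without any of 4 single libraries (adjusted p = 0.059 to 0.122). For HYH, RUP1 and RUP2 the values were 0.19, -0.11 and -0.27 (SE 0.21, 0.22 and 0.19, adjusted p = 0.252 to 0.717). Called members were 4 of 10, 1 higher and 3 lower, where 47.4% of 21879 genes were called, 20.8% higher and 26.7% lower.

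Most of the 10 genes had higher levels at 7 than at 2 days. In WT at 22 °C SPA4 rose 3.03-fold (log2 change 1.60), RUP1 2.6-fold (1.38), HYH 2.11-fold (1.08), SPA1 2.02-fold (1.01), HY5 1.99-fold (0.99) and SPA3 1.92-fold (0.94), and COP1 rose by 0.39. SPA2 fell by 0.15 and DET1 by 0.22 (adjusted p = 0.0125 and 0.041), and RUP2 had a value of 0.21 (adjusted p = 0.159). The fall of DET1 did not pass without any 1 of the 6 libraries (adjusted p = 0.061 to 0.102) or without a filter (adjusted p = 0.0518), and that of SPA2 not without replicate 3 of WT at 2 days (adjusted p = 0.0545). In WT at 27 °C COP1 fell by 0.26 (adjusted p = 0.00105), SPA3 had a value of 0.17 (adjusted p = 0.113) that was 0.26 and passed without the third replicates of WT and pif4 at 2 days (adjusted p = 0.0282), and SPA1, SPA4, HY5, HYH and RUP1 rose by 0.78, 0.54, 0.61, 1.27 and 1.27.

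The largest rises with age among the members were those of HYH at 27 °C, with 2.41 in pif4 and 2.67 in hda9 on the log2 scale. Its libraries there went from 228, 252 and 295 to 1454, 1186 and 1493 in pif4, and from 198, 215 and 266 to 1529, 1193 and 1624 in hda9. HY5 rose by 1.56 at 22 °C and 1.93 at 27 °C in hda9. Over the 10 genes, 7 were higher and 2 lower with age in WT at 22 °C (76.4% of genes called, 38.1% higher and 38.3% lower), and 5 and 1 in WT at 27 °C (70.8% called, 35.4% each way). In pif4 8 were higher and 0 lower at 22 °C (74.9% called, 36.5% higher and 38.4% lower) and at 27 °C (71.1% called, 35.7% higher and 35.5% lower). In hda9 8 were higher and 1 lower at 22 °C (73% called, 36.2% higher and 36.7% lower), and 6 higher and 0 lower at 27 °C (69.9% called, 36.1% higher and 33.8% lower). The called rises exceeded the falls in each of the 6 comparisons. The median log2 change of the 10 genes in WT at 22 °C was 0.97 beside -0.01 over all genes tested.

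Tissue and stage markers moved with age as well. In WT at 22 °C the summed leaf markers were at 715091 to 822819 at 2 days and 1844330 to 1854800 at 7 days, with 4 of 4 genes higher. Root markers had 2 of 5 genes higher and 3 lower, with sums of 3842 to 4797 and 2201 to 2299.9. Seed reserve markers fell from 205898 to 314642 at 2 days to 1268 to 3754 at 7 days, with 3 of 3 lower. In hda9 at 27 °C, where HY5 and HYH had their largest rises with age, 0 of 4 leaf markers were higher and 1 was lower. The part of these markers in the age changes of the 10 genes was not tested.

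Genes that act with COP1 and DET1 were taken from lists by role. Of 6 genes of the CUL4-DDB1 scaffold and the DET1 complex, 4 were higher and 1 lower at 27 °C in WT at 2 days, where 36.5% of all genes were higher and 35.5% lower, and 2 higher and 0 lower at 7 days, where 26.3% were higher and 31.1% lower. CUL4, the cullin of the ligase, rose by 0.25 in WT at 2 days (SE 0.04, adjusted p = 8.2e-05), DDB1A, an adaptor that binds DET1, rose by 0.13 at 2 days and 0.22 at 7 days, FUS9, the COP10 subunit of the DET1 complex, by 0.26 at 2 days and DDB1B by 0.20 at 7 days. AT5G41560 rose by 0.34 at 2 days, and RBX1, the RING subunit of cullin ligases, changed by -0.21. The median over the list was 0.19 and 0.16 in these comparisons. Between genotypes CUL4 was higher in hda9 than in WT in all 4 comparisons, by 0.23 and 0.21 at 2 days (22 and 27 °C) and 0.42 and 0.41 at 7 days. Other genes of the list were called lower in hda9, which were DDB1B at 2 days (-0.40 at 22 °C and -0.21 at 27 °C), RBX1 at 22 °C and 2 days (-0.15) and AT5G41560 at 22 °C and 7 days (-0.34).

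The 10 genes of the COP9 signalosome, which regulates cullin ligases, were lower where called at 2 days. In WT 0 were higher and 5 lower at 27 °C, beside 36.5% and 35.5% of all genes. They were CSN5A, which carries the catalytic activity (-0.44), COP8 (-0.39), FUS5 (-0.39), FUS6 (-0.33) and COP9 (-0.19), and the list's median was -0.23 beside 0.01 over all genes. At 7 days 2 were higher and 0 lower, COP9 with 0.40 and CSN6A with 0.47, beside 26.3% and 31.1% of all genes, and the median was 0.07. In hda9 at 2 days 7 of the 10 were lower than in WT at 22 °C, where 20.9% of all genes were lower, and 5 at 27 °C, where 15% were. At 7 days 2 were higher and 0 lower at 22 °C, FUS12 with 0.27 and FUS6 with 0.16, and at 27 °C the smallest adjusted p was 0.0516, for FUS12 with 0.19.

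Transcription factors that COP1 and SPA mark for degradation changed in both directions. In WT at 2 days 4 of 8 rose and 2 fell, and at 7 days 4 of the 6 that passed the filter rose and 1 fell. The shares called, 6 of 8 and 5 of 6, stand beside 72% and 57.4% of all genes. HFR1, which forms inactive dimers with PIF proteins, rose by 1.58 at 2 days and 0.84 at 7 days. LZF1, a B-box protein, rose by 0.77 and 1.00, and BBX21, another, by 0.45 and 0.39. CO, a flowering regulator, rose by 0.56 at 2 days. BZS1, also a B-box protein, changed by -0.52 at 2 days and 1.07 at 7 days. PAP1, a MYB factor that turns on anthocyanin genes, changed by -3.47 at 2 days, and LAF1, a MYB factor of phytochrome A signalling, by -0.75 at 7 days. In pif4 at 7 days HFR1 differed from WT by -2.18 at 22 °C and by -2.43 at 27 °C on the log2 scale.

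A list of HY5 and UV-B pathway genes, which includes the receptor gene UVR8, was mostly lower at 27 °C. Of 15 genes 14 passed the filter, and in WT 3 rose and 10 fell at 2 days and 2 rose and 11 fell at 7 days. Of all genes, 36.5% rose and 35.5% fell at 2 days, and 26.3% and 31.1% at 7 days. The list's median log2 change was -1.04 at 2 days and -1.46 at 7 days, beside 0.01 and -0.03 over all genes. FLS1, a flavonol synthase, changed by -2.83 and -1.75, the light-stress gene ELIP2 by -2.32 and -2.47, and PHR1, a DNA photolyase, by -2.16 and -1.81. TT4, the chalcone synthase of flavonoid synthesis, fell at 2 days and had a value of -0.45 at 7 days, which did not pass (adjusted p = 0.0609). Those that rose at both ages were the receptor gene UVR8, by 0.71 and 0.72, and the photolyase gene UVR3, by 0.28 at 7 days and by more at 2 days. AT1G16260 changed by 0.78 at 2 days and -0.83 at 7 days.

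In pif4 and hda9 at 2 days the counts were 3 higher and 10 lower in each. At 7 days they were 2 and 11 in pif4 and 2 and 9 in hda9. The share of all genes lower was 34.4% and 35% at 2 days and 31.6% and 30.4% at 7 days. In pif4 at 27 °C and 7 days, where HY5 and HYH were higher, 2 of 14 were higher than in WT and 1 lower, beside 13.1% and 11.7% of all genes, PHR1 with 0.58, AT1G16260 with 0.61 and TT5, the chalcone isomerase, with -0.49. In hda9 in the same condition 1 was higher, AT1G16260 with 0.62, and 0 were lower, beside 18.4% and 15.9% of all genes.

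**Figure D5:**
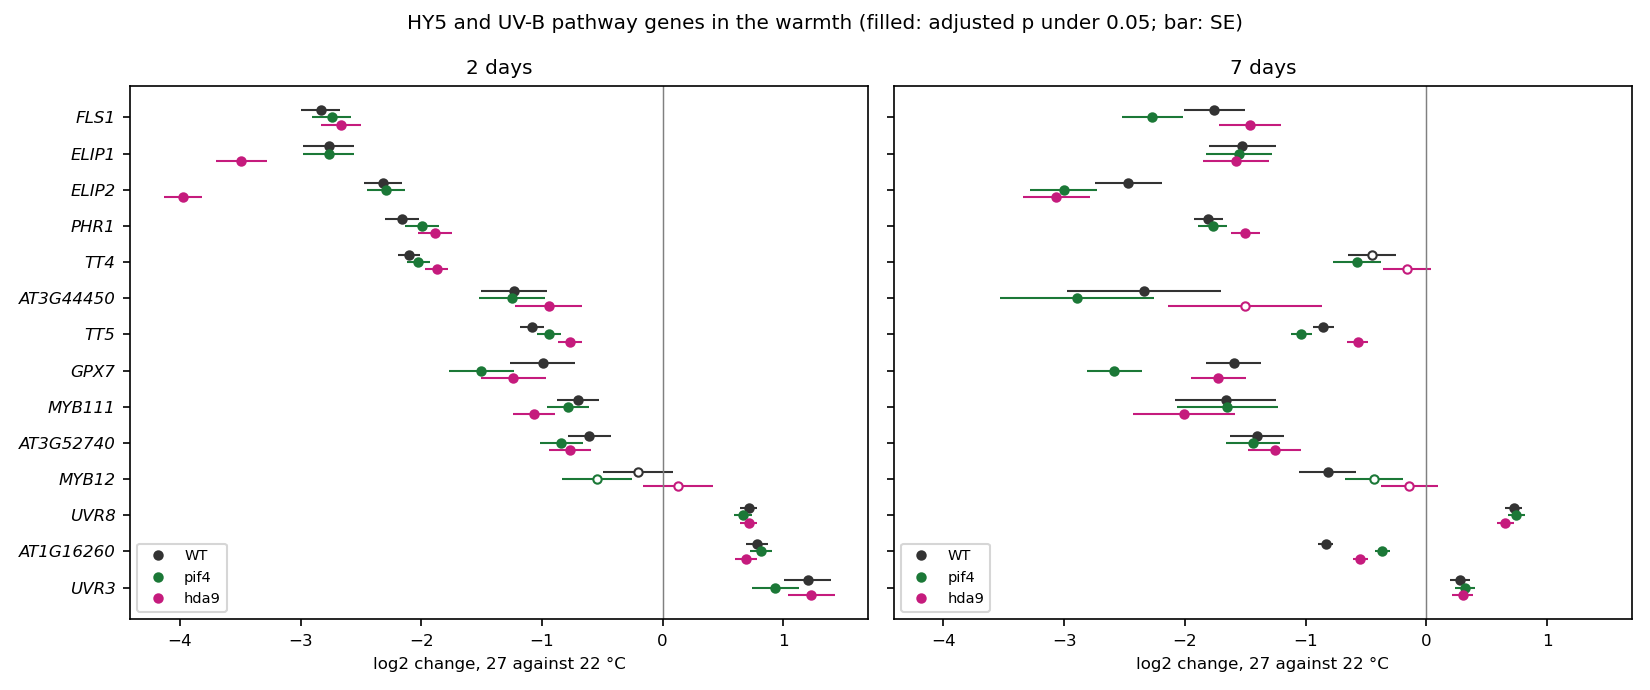
Log2 change from 22 to 27 °C (horizontal axis) of 14 HY5 and UV-B pathway genes, among them the receptor gene UVR8. Panels show 2 days (left) and 7 days (right) in WT, pif4 and hda9. Bars are 1 SE, and filled points mark an adjusted p under 0.05. Most points lie left of 0, and UVR8 and UVR3 lie right of 0 at both ages.

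For each member the genes with the most similar pattern were taken over the 12 group means, as a description across conditions that share age and temperature. RUP2 was closest to bHLH34 (Pearson r = 0.993), TPR4 (0.983) and TRX-M4 (0.972). RUP1 was closest to AT2G45180 (0.992), AT1G75490 (0.992) and CRF8 (0.991). HYH was closest to AT1G11330 (0.984), ATSUV3 (0.979) and CP1 (0.975), and HY5 to UPM1 (0.982), AT1G55450 (0.974) and AT3G56200 (0.973). SPA1 was closest to AT3G12345 (0.986), HCF164 (0.984) and NCS1 (0.982), SPA3 to AOR (0.986), KAC1 (0.984) and TPR3 (0.978), and SPA4 to AT3G44630 (0.992), WNK2 (0.991) and WRKY47 (0.99).

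The members with little range had weaker matches. Only genes with a range of at least 1 on the log2 scale were candidates, so genes as flat as these members could not be named. COP1 was closest to FIB4 (0.97), AT1G10740 (0.959) and AT1G17360 (0.933), SPA2 to AT3G45630 (0.913), AT5G60610 (0.897) and AT1G27190 (0.873), and DET1 to AT5G47980 (0.734), AT1G29110 (0.688) and AT4G24350 (0.673). Over the 36 libraries 16 of these 30 genes were again among the 3 closest, and the value for DET1 and AT5G47980 was 0.261. Among the members themselves, SPA1 and SPA4 had r = 0.932 and SPA3 and HYH r = 0.913 over the 12 groups, while RUP1 and RUP2 had r = -0.23 and HY5 and HYH r = 0.722.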

How the data were processed

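The data are RNA sequencing of 36 libraries. Each value in the authors' deposited files is a signal, namely the reads of a gene over the size factor of its library (0.53 to 1.76). Whole reads came out of 100% of the values within 0.01. Upstream tools were DESeq, HTSeq, Bowtie, TopHat2 and FastQC, and the build was TAIR10, per the submitters' processing notes. The strand setting is not given in the sources used here. The 5 counting categories held 7.84 to 10.1% of reads and were left out. Libraries were grouped by genotype, temperature and age from the labels.

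Log2(value + 1) was fitted with limma 3.58.1 (trend, eBayes) in R 4.3.3, with 1 mean per group, in 18 libraries per age or in all 36 for comparisons between ages. Genes at 10 or more in at least 3 libraries were tested, and a gene was called at a Benjamini-Hochberg adjusted p under 0.05 over all of them. Fold changes are on the log2(value + 1) scale. Ratios were tested by exact permutation. Alternatives were a pseudocount of 8, no filter, the replicate number as a block, TMM factors, a fit of only the compared groups, libraries left out, and count tests on the recovered reads with DESeq2 1.42.0 and edgeR 4.0.16.

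Levels per kilobase use RefSeq exon lengths. Likeness was measured among genes with a mean of at least 50 and a range of at least 1 on the log2 scale, and the 3 closest were named. In a pathway list at most 4 called genes with the smallest p were to be named per comparison, or more where a count of 5 or fewer needed them. The members and lists were chosen with earlier results of these data known. Names come from RefSeq. Numbers were taken to pair libraries where every same-numbered pair correlated above 0.1. This was so for pif4 at 27 against 22 °C, pif4 against WT at both temperatures and hda9 against WT at 27 °C, all at 2 days.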

Additional observations from a re-analysis of the deposited data

Results flagged for a closer look

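In 9 cases the response to 27 °C of a gene differed between genotypes or ages by a test of the difference itself. Against WT at 7 days, the log2 response of SPA1 was higher by 0.42 in pif4 and by 0.36 in hda9, and that of SPA3 by 0.61 in each. The response of HYH was higher by 0.96 in hda9. In WT, the change of the response with age, from 2 to 7 days, was -0.65 for COP1, 0.19 for SPA2, -0.77 for SPA3 and -1.06 for SPA4. The response of COP1 and SPA4 thus had opposite signs at the 2 ages, although the COP1 rise at 2 days rests on a call that most alternatives lose. The seed reserve markers of WT also responded differently. The response to 27 °C of 3 of 3 of these genes was called higher at 7 than at 2 days in the same test. Their part in these differences was not tested.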

How the results depend on the processing

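Of 250 changes of the 10 genes tested, 128 were called, 106 of them under every alternative, and 22 were lost under some, 13 of these only without 1 library. A further 20 were called under some alternative, and no called value changed sign. The uncalled change of DET1 with age in pif4 at 22 °C was -0.051 to 0.26 without single libraries, lowest without replicate 3 of pif4 at 7 days. Of the 10 genes, those called in pif4 against WT at 22 °C and 7 days numbered 1 in the fit reported, 3 with the replicate block, 2 with edgeR, 3 with DESeq2, 0 with only the compared groups, and 0 to 4 with single libraries left out. The hda9 response difference at 2 days went from 0 to 1 with the block (COP1, adjusted p = 0.014) and to 0 to 1 with single libraries left out. At 7 days the response differences went from 2 to between 1 and 3 (pif4) and from 3 to between 1 and 4 (hda9) without single libraries, and SPA4 in hda9 passed with the block (adjusted p = 0.0234). Within genotypes, which have no test, log2 ratio changes that moved were 1.51 for HY5 to HYH in hda9 at 2 days, and at 7 days 1.36 in WT and 0.85 in hda9 for HY5 to HYH, -0.72 in WT, -0.37 in pif4 and -0.39 in hda9 for SPA1 to SPA2, and -0.56 in WT and -0.075 in pif4 for SPA3 to SPA4. The cause was not tested.

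Over all genes, the count called moved beyond 1.5 times as follows. For pif4 against WT it went from 39 to 18 without the third replicates and 24 with only the compared groups (22 °C, 2 days), from 39 to 59 with the block and 16 with the compared groups (27 °C, 2 days), and from 3764 to 1032 with the compared groups (22 °C, 7 days; 2309 to 4334 without single libraries). For hda9 against WT it went from 6214 to 3884 (27 °C, 2 days; 3707 to 7341 without single libraries) and from 4273 to 6652 (22 °C, 7 days) with the compared groups. Response differences went from 0 to 3 with DESeq2 (pif4, 2 days; 313 genes at an unadjusted p under 0.05), from 574 to 2964 with the block, 374 with TMM factors, 304 with edgeR, 1029 with DESeq2, 2093 without the third replicates, 183 with the compared groups and 68 to 1840 without single libraries (hda9, 2 days), from 447 to 780 with the block, 894 with DESeq2, 187 with the compared groups and 205 to 768 without single libraries (pif4, 7 days), and from 752 to 1200 with the block, 1173 with DESeq2, 1505 with the compared groups and 328 to 1036 without single libraries (hda9, 7 days). In comparisons where the numbers did not pair, the block uses a shared number only. Where the numbers pair, it changed no call of the 10 genes other than HYH and RUP1 in hda9 against WT at 27 °C and 2 days. With 3 libraries per group, small changes such as those of DET1 may go undetected.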
